A study of Mus musculus with 12 samples.

Results

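The genes described here encode the subunits of the mitochondrial respiratory chain and of ATP synthase, measured as messenger RNA in cultured cells of the mouse mammary tumour lines 4T1 and EMT6. They were chosen by symbol alone. The rule took the nuclear families Nduf, Sdh, Uqcr, Cox4 to Cox8 and Atp5, the cytochrome genes Cyc1 and Cycs, and the protein-coding genes of the mitochondrial genome. It found 106 of the 56691 rows of each line's table, 93 of them nuclear and 13 mitochondrially encoded. A further 14 rows were left out because their symbols contain -ps. The nuclear rows comprise 40 for complex I, 4 for complex II, 10 for complex III with its cytochromes, 21 for complex IV and 18 for complex V. The mitochondrial rows comprise 7, 0, 1, 3 and 2 in the same order. A second row named Atp5o held 0 counts in all 12 libraries.

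The study compared control cells, labelled WT, with knockout cells (KO) labelled sgNEDD4, a guide against the ubiquitin ligase gene Nedd4, in each line. Each of the 4 groups has 3 libraries, all grown in DMEM with serum, and all carry the batch label 1. The sources used here do not give whether a group's libraries came from separate cultures or clones, and p-values therefore measure only the spread between these libraries. Total counts ran from 13705612 to 19761604 per library, so that 3 counts equal between 0.152 and 0.219 CPM, which are counts relative to a library's total. Nedd4 itself stood at 94.4, 97.6 and 93.5 FPKM (counts scaled to exon length and to the library's total count) in the 4T1 controls and at 24.7, 24.9 and 25.3 FPKM in 4T1 KO cells. In EMT6 it stood at 122, 121 and 117 FPKM in control cells, against 12.1, 11.5 and 12.1 FPKM in KO cells. Of the epithelial markers checked, Epcam was at 69.3 to 155 FPKM in 4T1 but at 0.21 to 1.25 FPKM in EMT6. Cdh1 was at 0 to 0.02 FPKM in EMT6, where Krt8 stood at 273 to 361 FPKM. The fibroblast marker Col1a1 stood there at 152 to 221 FPKM. All 6 fibroblast markers together summed to 158 to 243 FPKM in EMT6, with Lum at 0, so Col1a1 made up most of that sum. The lists of leukocyte, endothelial, and muscle and brown fat markers each summed to at most 23.8 FPKM in any library, and Cd3e was listed at 0.

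The respiratory chain moves electrons from NADH, through complex I, and from succinate, through complex II, to ubiquinone and on through complex III, cytochrome c and complex IV to oxygen. Complexes I, III and IV pump protons out of the matrix, and ATP synthase, complex V, makes ATP as the protons flow back. Complexes I, III, IV and V each combine subunits made in the mitochondrion with a larger number made in the cytosol and imported, so the subunits come from 2 genomes, while all 4 subunits of complex II are nuclear.

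The mitochondrially encoded genes are described first, because sequence shared with nuclear copies sets what their counts can show. For each gene, every window of 50 bases of its transcript in the GENCODE M21 annotation (GRCm38) was looked up in the transcripts of all other genes. All windows of mt-Co2, which encodes the copper-binding subunit 2 of complex IV, recur in other genes, and a run of 681 bases is identical in Gm28661, an annotated pseudogene on chromosome 1. The start of mt-Co2 (chrMT:7013-7072, plus strand) is shown with all bases of the shared run in capitals. In mt-Co1, the catalytic subunit of complex IV, 51.1% of the windows recur, and the longest identical run goes from coding base 1067 to 1542, in Gm29216, also on chromosome 1. The stretch around the start of that run (chrMT:6364-6423, plus strand) shows the bases before it in lower case and those within it in capitals.
mt-Co2: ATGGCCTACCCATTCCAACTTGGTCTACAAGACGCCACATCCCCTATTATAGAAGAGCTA
mt-Co1: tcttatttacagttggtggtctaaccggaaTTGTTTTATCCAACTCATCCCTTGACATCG

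The 13 genes fell into 2 ranges of level that follow the shared sequence. In 4T1, the 7 genes with under 70% of their windows shared, other than mt-Atp8, stood at means from 994 FPKM (mt-Nd4) to 7657 FPKM (mt-Co1) over 6 libraries. The 5 genes with over 97% shared, mt-Nd3, mt-Nd4l, mt-Atp6, mt-Co3 and mt-Co2, stood at 1.65 to 29.3 FPKM. In EMT6 the same sets stood at 324 to 4596 FPKM and at 0.363 to 14.8 FPKM. The genes of both sets lie on the same mitochondrial genome, and the copies themselves drew counts: Gm10925, which is identical with mt-Atp6 over 678 bases, held 221 to 408 counts in the 4T1 libraries, beside 162 to 297 for mt-Atp6. The sources used here do not give how reads that match several genes were counted, and the low level of these 5 genes is therefore not a measure of their transcript. The small gene mt-Atp8 was also low, at 11.7 FPKM in 4T1. Of its windows 0% were found in other annotated genes, and sequence outside annotated transcripts was not searched. Its end overlaps the start of mt-Atp6 by 43 bases. The overlap (chrMT:7917-7979, plus strand) is shown in capitals, with 10 bases on each side.
mt-Atp8 and mt-Atp6: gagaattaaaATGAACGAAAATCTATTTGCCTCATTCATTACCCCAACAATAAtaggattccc

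**Figure D1:**
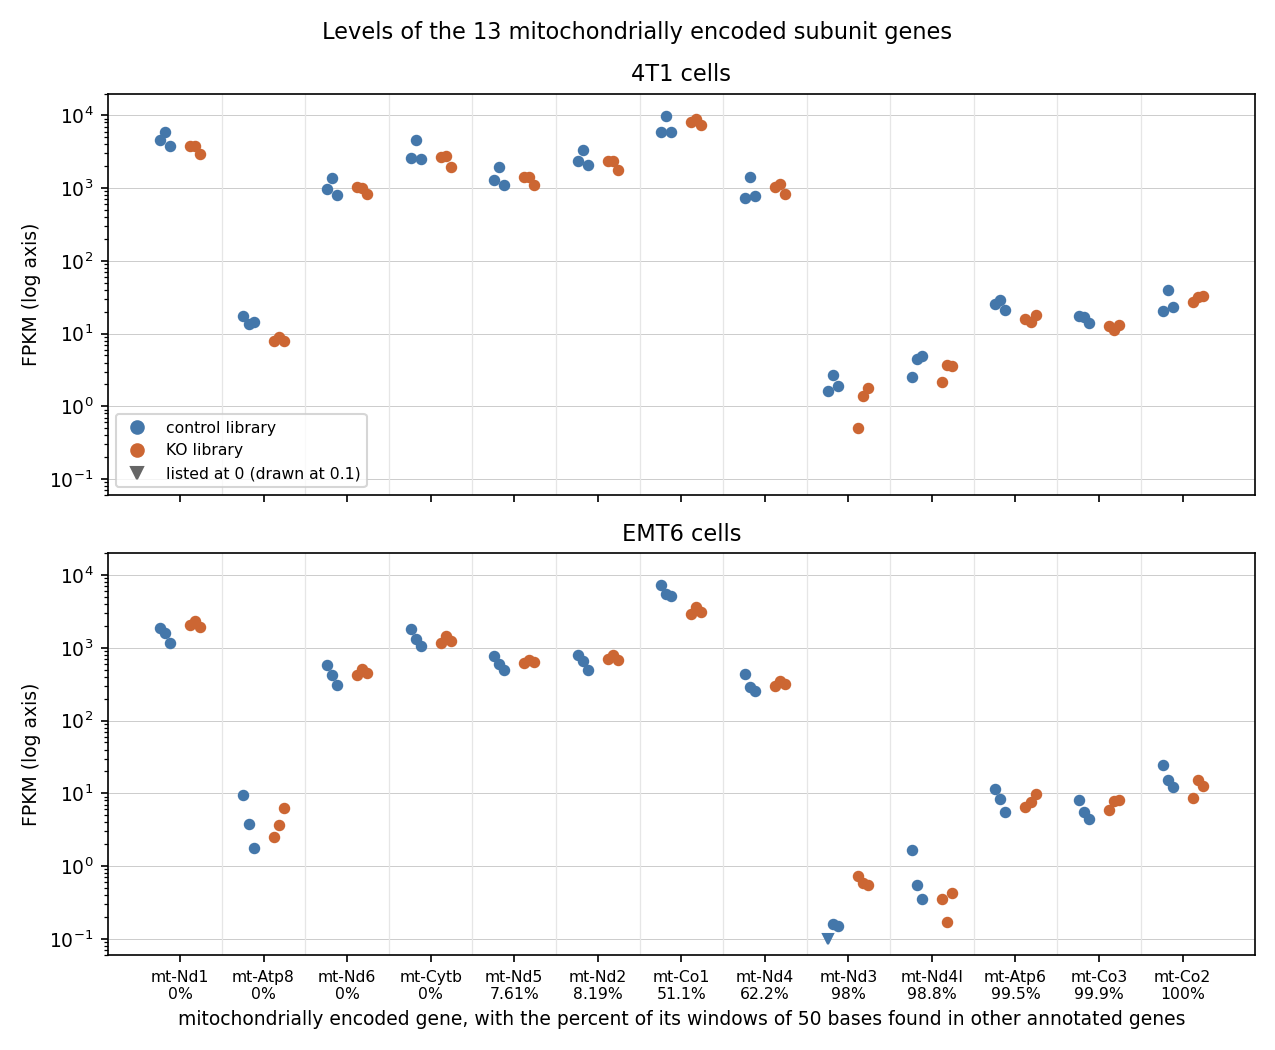
FPKM of the 13 mitochondrially encoded genes on a log axis, 4T1 above and EMT6 below. Each point is 1 library, controls in blue and KO in orange, and genes are ordered by the percent of their windows of 50 bases found in other annotated genes. The 5 genes on the right, with over 97% shared, reach a mean of at most 29.3 FPKM, while the lowest mean of the 7 abundant genes is 324 FPKM.

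In 4T1, 3 of the 13 mitochondrially encoded genes fell and 0 rose with edgeR's quasi-likelihood test at an adjusted p under 0.05; over all 13313 genes tested, 57.0% were called. The 3 that fell are all in the low range. mt-Atp8, a subunit of the membrane part of ATP synthase, stood at 17.3, 13.4 and 14.7 FPKM in control cells, against 7.82, 8.96 and 7.79 FPKM in KO cells. Its log2 change (KO over control) was -0.97 ± 0.24 (SE), from 41 to 57 counts per control library. mt-Atp6, which forms the proton channel with subunit c, stood at 25.7, 29.1 and 21.1 FPKM and then at 15.7, 14.5 and 18 FPKM, with a log2 change of -0.74 ± 0.12 (edgeR adjusted p = 1.5e-05). mt-Co3, the third core subunit of complex IV, stood at 17.6, 16.8 and 14.2 FPKM and then at 12.8, 11.2 and 13 FPKM, with a log2 change of -0.47 ± 0.12. In each of these 3 genes every KO library was below every control. These 3 are neighbours on the mitochondrial genome, and 2 of them have annotated nuclear copies over nearly their whole length.

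None of the 7 abundant mitochondrial genes passed the test in 4T1, and their controls varied widely. mt-Cytb, the only mitochondrially encoded subunit of complex III, stood at 2577, 4580 and 2516 FPKM in control cells, against 2653, 2784 and 1955 FPKM in KO cells. mt-Nd1, at the foot of the membrane arm of complex I, stood at 4646, 5997 and 3774 FPKM and then at 3755, 3822 and 2926 FPKM. Control 2 was the highest of the 6 libraries in mt-Nd1, mt-Nd2, mt-Co1, mt-Nd4, mt-Nd5, mt-Nd6 and mt-Cytb, and mitochondrial messenger RNA made up 3.56% of its counts. The lowest control share was 2.14%, and the KO libraries held 2.2% to 2.77%. Without control 2, mt-Co1 was called higher at a log2 change of 0.40 and mt-Co2 at 0.43, and 5 of the 13 genes were called, so 1 library decides these values.

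In EMT6, 11 of the 13 genes could be tested and 1 fell, against 56.0% called over all 12890 genes tested. mt-Co1 stood at 7278, 5441 and 5148 FPKM in control cells, against 2958, 3591 and 3161 FPKM in KO cells, a log2 change of -0.88 ± 0.13 (edgeR adjusted p = 0.00057). The other abundant genes overlapped between groups, with the exception of mt-Nd1, at 1901, 1583 and 1173 FPKM in control cells, against 2063, 2359 and 1962 FPKM in KO cells, where the adjusted p was 0.096. mt-Nd3 and mt-Nd4l had too few counts for a test, at most 5 and 7 per library. EMT6 control 1 was the highest control in every tested mitochondrial gene, and its share of mitochondrial messenger RNA was 1.84%, while the lowest control stood at 1.23% and the KO libraries at 1.04% to 1.23%. Without it, 6 genes were called: mt-Co1 at -0.71, mt-Nd1 at 0.62, mt-Co3 at 0.55, mt-Nd2 at 0.34, mt-Nd4 at 0.24 and mt-Nd5 at 0.22.

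Of the 93 nuclear rows, 80 passed the low-count filter in 4T1 and 79 in EMT6. Those that did not pass in either line are Cox4i2, Cox6a2, Cox6b2, Cox7a1, Cox7b2, Cox8b, Cox8c, Ndufa4l2, Ndufa11b, Ndufb4c, Ndufb11b, Ndufs6b and the second Atp5o row, to which EMT6 adds Cox6c2. None of them exceeded 2.2 FPKM in any library of a line where it was not tested. The first 8 are isoforms known from muscle, testis, lung or low oxygen, and their common counterparts were abundant. In 4T1 Cox4i1 had a mean of 191 FPKM over the 6 libraries, Cox6a1 256, Cox6b1 145, Cox7a2 48.6 and Cox8a 401 FPKM. Cox8a had the highest level of the tested nuclear genes in 4T1. In EMT6 the highest was Atp5b, the catalytic subunit of ATP synthase, at 461 FPKM, and the median over tested nuclear genes was 39.4 FPKM in 4T1 and 48.4 FPKM in EMT6. Some nuclear genes with copies also stood low. The 7 with at least 50% of their windows shared had a median of 3.99 FPKM in 4T1. They ranged from 0.73 FPKM (Atp5g1) to 55.4 FPKM (Atp5o), so not all were low. The 47 with under 10% shared had a median of 43.8 FPKM.

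In 4T1, 27 of the 80 tested nuclear genes fell and 8 rose, with a median log2 change of -0.10, beside 0.00 over all tested genes. Over all tested genes 29.0% were called lower and 28.0% higher, so the share of subunit genes that fell, 33.8%, is near the background, and the share that rose, 10.0%, is below it. By complex, 9 of 36 fell and 3 rose in complex I, 2 of 4 fell in complex II, 5 of 10 fell in complex III, 3 of 13 fell and 2 rose in complex IV, and 8 of 17 fell and 3 rose in complex V. In EMT6 the count ran the other way: 36 of 79 rose and 8 fell, with a median of 0.14 (0.00 over all tested genes), beside 27.9% called higher and 28.2% called lower over all tested genes. Complex I had 16 of 36 higher and 2 lower, complex II 2 of 4 higher, complex III 4 of 10 higher and 2 lower, complex IV 6 of 12 higher and 1 lower, and complex V 8 of 17 higher and 3 lower. The changes were small. Against a fold of at least 1.2 (edgeR's glmTreat), 6 fell and 0 rose in 4T1, where the background was 12.6% lower and 14.3% higher, and 0 fell and 13 rose in EMT6, where it was 15.6% lower and 15.3% higher. With scaling by total counts only, 21 fell and 14 rose in 4T1, so that 60% of the called genes were lower in place of 77.1%. In bulk RNA, fewer cells of a type and less RNA per cell cannot be told apart.

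The 4T1 KO libraries differed from their controls in other ways. The nuclear RNA Malat1 stood at 479 to 560 CPM in the KO libraries and at 69.3 to 155 in the controls, and Neat1 at 241 to 333 and 51.6 to 84.6. The KO libraries had a count in 20937 to 21264 genes, the controls in 18836 to 19017. The summed level of the 6 epithelial markers was 1403 to 1482 FPKM in KO cells and 1947 to 2026 FPKM in the controls. In EMT6, Neat1 was lower in the KO libraries, at 28.2 to 36.1 against 66.8 to 138 CPM. The 6 fibroblast markers, with Lum at 0, summed there to 211 to 243 FPKM in KO cells and 158 to 179 FPKM in control cells, and 3 of the 4 tested were called higher and 1 lower. Leukocyte markers summed to 7.74 to 9.55 FPKM and 18.2 to 22.3 FPKM in the same order, with Ptprc, Itgam and Adgre1 at 0. Of the 2 tested there, 1 was called lower and 1 higher. In 4T1 the leukocyte markers summed to 18.0 to 21.4 FPKM in KO cells and 11.3 to 12.9 FPKM in control cells. Of the 3 tested in 4T1, 1 was called higher and 0 lower. The part of these differences in the subunit counts was not tested.

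**Figure D2:**
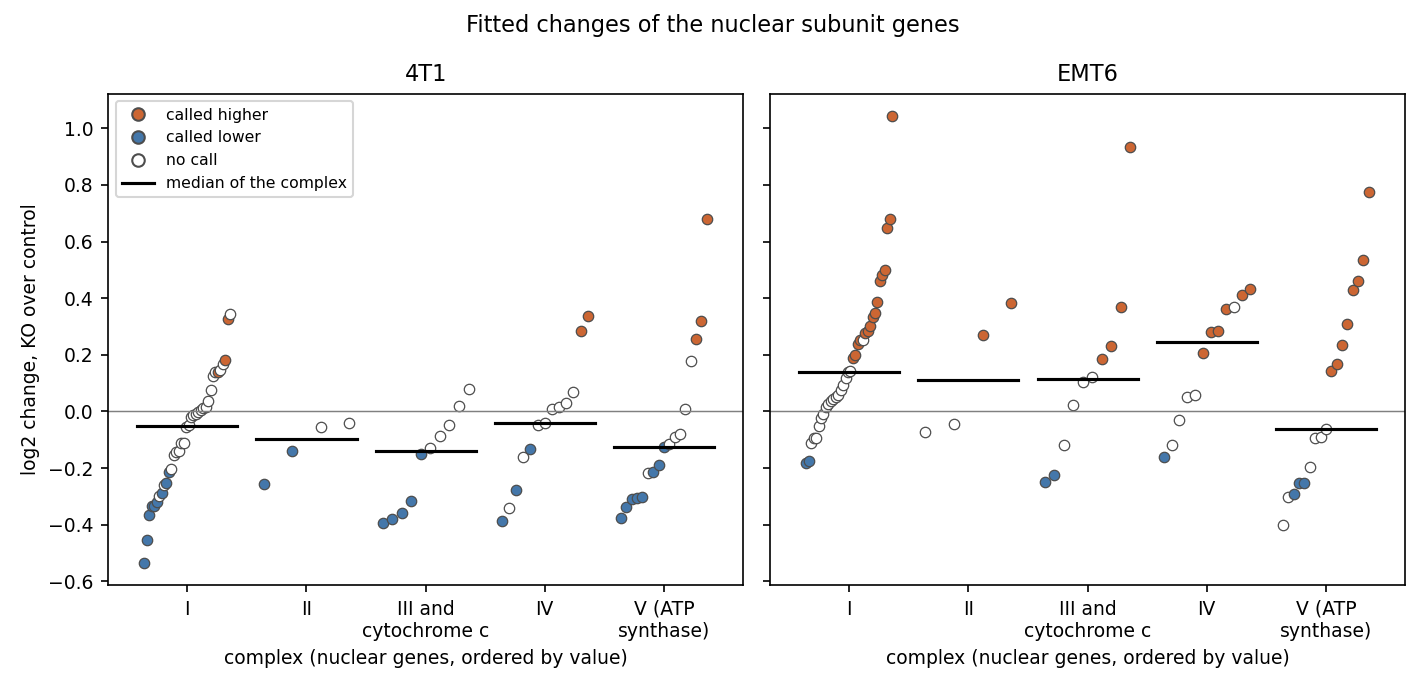
Log2 change (KO over control) of each tested nuclear gene by complex, 4T1 on the left and EMT6 on the right. Filled points passed edgeR's test, orange higher and blue lower, and black bars are the median of a complex, which lies below 0 for all 5 complexes in 4T1 and above 0 for all but complex V in EMT6.

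Complex I is built from core subunits, which carry the electrons and pump the protons, and from accessory subunits around them. The Ndufs and Ndufv genes encode the nuclear core subunits and some accessory ones, such as Ndufs4 and Ndufs6. In 4T1, 4 of the 11 tested Ndufs and Ndufv genes fell and 1 rose, and in EMT6 1 fell and 4 rose, beside 29.0% lower and 28.0% higher over all genes in 4T1 and 28.2% and 27.9% in EMT6. Ndufs1, the largest iron-sulfur subunit of the arm that binds NADH, stood at 17.4, 16 and 16.6 FPKM in 4T1 control cells, against 13.7, 13.7 and 14.4 FPKM in KO cells, and every KO library was below every control. Its log2 change was -0.34 ± 0.05 in 4T1 and -0.18 ± 0.06 in EMT6. The EMT6 call was lost without control 2 (adjusted p = 0.057), KO 1 (0.053) or KO 2 (0.066). Ndufs8, an iron-sulfur subunit near the ubiquinone site, rose in EMT6 from 50.5, 54.1 and 49.9 FPKM to 72.8, 70 and 69.3 FPKM, while in 4T1 it stood at 38.7, 33.1 and 37.8 FPKM in control cells, against 34.6, 31.5 and 37.8 FPKM in KO cells (adjusted p = 0.062).

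Accessory subunits of the membrane arm included the lowest and the highest fitted change of the nuclear complex I genes. Ndufb9, on chromosome 15 (58805605 to 58811337 in the deposited table, which names no build), fell in 4T1 from 214, 197 and 221 FPKM to 141, 157 and 163 FPKM. Its log2 change was -0.54 ± 0.05 (edgeR adjusted p = 3.3e-09), the lowest adjusted p of the nuclear subunit genes in 4T1. In EMT6 it stood at 87.3, 92.3 and 85.2 FPKM in control cells, against 89.3, 88.5 and 89.3 FPKM in KO cells, with a log2 change of 0.01 ± 0.06. Ndufb11, on the X chromosome (20481565 to 20483858), passed the test in EMT6. It rose 2.06-fold in EMT6, from 40.1, 37.1 and 38.4 FPKM to 77.3, 81.7 and 78.6 FPKM (edgeR adjusted p = 1.5e-09), the largest rise among the tested subunit genes. In 4T1 it stood at 40.4, 37.6 and 40.1 FPKM in control cells, against 43.2, 45.9 and 48 FPKM in KO cells, a log2 change of 0.14 ± 0.07 that did not pass the test (adjusted p = 0.076).

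Ndufb1 passed the test in both lines in opposite directions. It fell in 4T1 from 21.3, 21.2 and 24.6 FPKM to 15.1, 17.1 and 19.4 FPKM and rose in EMT6 from 11.5, 11.3 and 10.8 FPKM to 16, 17.6 and 20.2 FPKM, and the groups did not overlap in either line. Ndufb2 rose in EMT6 by a log2 change of 0.65 ± 0.09, from a mean of 3.18 ± 0.22 (SD, n = 3) to 4.98 ± 0.225 FPKM. Ndufa10 fell in 4T1 at -0.37 ± 0.05 and Ndufa6 rose there at 0.33 ± 0.07, and neither passed the test in EMT6, where the log2 changes were 0.08 ± 0.06 and -0.10 ± 0.06. Ndufa9, which anchors the ubiquinone-binding module, fell in both lines at -0.33 in 4T1 and -0.17 in EMT6, and the EMT6 call was lost without control 3 (adjusted p = 0.065), KO 1 (0.083) or KO 2 (0.10).

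Complex II is also an enzyme of the citric acid cycle. Sdhb, its iron-sulfur subunit, fell in 4T1 from 48.1, 43.8 and 49.8 FPKM to 40.6, 41.4 and 43.3 FPKM (log2 change -0.25 ± 0.05). In EMT6 it rose from 33.2, 35 and 37.3 FPKM to 45, 44.6 and 48 FPKM (0.38 ± 0.06), and the groups did not overlap in either line. Sdha, the flavin subunit that oxidises succinate, changed less: -0.14 ± 0.05 in 4T1, a call that was lost without KO 1 (adjusted p = 0.053), and -0.07 ± 0.05 in EMT6 with no call. Of the membrane anchors, Sdhc rose in EMT6 from 26.8, 29.8 and 27 FPKM to 33.4, 34.3 and 33 FPKM, and Sdhd passed the test in neither line at a log2 change of -0.04 in both.

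In complex III, Uqcrc1, a core protein of the matrix side, fell in both lines. It stood at 72.3, 64.4 and 71.7 FPKM in 4T1 control cells, against 53, 56.2 and 58.3 FPKM in KO cells (log2 change -0.39 ± 0.05, edgeR adjusted p = 1.2e-07). In EMT6 it stood at 58.4, 65.1 and 59.6 FPKM and then at 53, 51.2 and 49.6 FPKM (-0.25 ± 0.06). Uqcrh, the hinge protein that contacts cytochrome c1, rose in EMT6 from 57.8, 58.9 and 38.3 FPKM to 92.2, 98.4 and 105 FPKM, a log2 change of 0.94 ± 0.18 (adjusted p = 0.0054), with control 3 far below the other controls. In 4T1 its log2 change was 0.02 ± 0.06. Uqcrb and Uqcrq, small subunits of the membrane part, fell in 4T1 at -0.36 and -0.32 and rose in EMT6 at 0.23 and 0.19. The EMT6 call of Uqcrb was lost without control 3 (adjusted p = 0.10), KO 1 (0.11), KO 2 (0.067) or KO 3 (0.086), and that of Uqcrq without KO 1 (0.084) or KO 2 (0.053).

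Cytochrome c1 and cytochrome c link complex III to complex IV. Cyc1, cytochrome c1, fell in EMT6 from 88.3, 96.1 and 92.7 FPKM to 80.4, 76.5 and 80.1 FPKM (log2 change -0.22 ± 0.06) and stood at 44.6 ± 4.46 and 44.3 ± 2.35 FPKM (SD, n = 3) in the 4T1 controls and KO libraries. Cycs, the soluble cytochrome c, fell in 4T1 from 4.53, 3.96 and 4.91 FPKM to 3.85, 3.19 and 3.8 FPKM (-0.38 ± 0.11) and passed no test in EMT6. Its whole coding sequence of 315 bases recurs in Gm10053, so its count is uncertain.

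In complex IV, Cox5b, a subunit on the matrix side, fell in 4T1 from 59.9, 54.3 and 61.8 FPKM to 45.2, 46.3 and 50.5 FPKM (log2 change -0.39 ± 0.05). It rose in EMT6 from 55.3, 56.5 and 52.6 FPKM to 65.9, 66.9 and 66.8 FPKM (0.28 ± 0.06). Ndufa4, named for complex I and now counted with complex IV, rose in EMT6 at 0.36 ± 0.06 and was called lower in 4T1 at -0.13 ± 0.05, a call that was lost without control 1 (adjusted p = 0.065), control 3 (0.070) or KO 1 (0.15). Cox7b rose in both lines, at 0.28 ± 0.06 in 4T1 and 0.43 ± 0.09 in EMT6. Cox7a2l, a relative of Cox7a that binds complexes III and IV together in supercomplexes, rose in 4T1 from 89.4, 79.1 and 85.2 FPKM to 109, 107 and 122 FPKM. In EMT6 it stood at 89.2, 98.5 and 107 FPKM in control cells, against 90.7, 91.8 and 88.7 FPKM in KO cells, where the groups overlapped. Cox4i1, the regulatory subunit present in most tissues, passed the test in neither line, with log2 changes of 0.07 and -0.03.

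ATP synthase consists of a catalytic head, a stalk and a ring of c subunits in the membrane. Of the 5 head genes, Atp5a1, Atp5b and Atp5c1 fell in 4T1. Atp5a1, the alpha subunit, stood at 270, 265 and 288 FPKM in control cells, against 230, 230 and 243 FPKM in KO cells (log2 change -0.30 ± 0.04). Atp5b, the beta subunit, stood at 396, 375 and 415 FPKM and then at 342, 359 and 378 FPKM (-0.22 ± 0.04), with KO 3 above control 2. Neither passed the test in EMT6, at -0.06 ± 0.06 and -0.09 ± 0.06. Atp5c1, the gamma subunit that turns inside the head, fell in 4T1 at -0.31 ± 0.04. In EMT6 it was called higher at 0.14 ± 0.06, and that call was lost when any 1 library other than control 2 was left out (adjusted p from 0.055 to 0.15). Atp5e, the epsilon subunit, rose in EMT6 from 21.1, 23.1 and 22.2 FPKM to 30, 30 and 36.4 FPKM.

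Among the small membrane subunits of ATP synthase, Atp5mpl, a proteolipid, fell in 4T1 from 51.2, 50.4 and 53.5 FPKM to 39.2, 43.4 and 43.5 FPKM and rose in EMT6 from 34.2, 34.6 and 28.4 FPKM to 44.3, 43.5 and 45.7 FPKM. Atp5j2, subunit f, fell in 4T1 from 23.3, 22.4 and 23.1 FPKM to 18.2, 19.7 and 19.7 FPKM and rose in EMT6 from 25.6, 26.1 and 22 FPKM to 31.2, 32.7 and 35 FPKM. The groups of both genes did not overlap in either line. Atp5o, the stalk protein that gives oligomycin sensitivity, fell in EMT6 from 72.8, 81.6 and 73.5 FPKM to 63.9, 62 and 60 FPKM and did not pass in 4T1 (adjusted p = 0.059).

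The c ring is encoded by 3 genes with the same mature protein. Atp5g3 stood at 77.9 FPKM in 4T1 and 105 FPKM in EMT6, and it rose in EMT6 at 0.31 ± 0.08. Atp5g1 and Atp5g2 stood at 0.73 and 1.7 FPKM in 4T1, and 66.0% and 100% of their windows recur in other genes. The call of Atp5g2 as higher in 4T1, from 1.59, 0.88 and 1.31 FPKM to 2.05, 2.58 and 1.8 FPKM, therefore rests on 22 to 71 counts per library in a gene with complete copies, and it was lost without control 2 (adjusted p = 0.10) or KO 2 (0.11).

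The difference between the lines was tested directly as the interaction of line and knockout over the 12 libraries. Of the 79 nuclear genes tested in both lines, 43 were called, 36 with the EMT6 change above the 4T1 change and 7 below it. Over the 12006 genes tested 59.9% were called, 29.7% above and 30.2% below. The median difference was 0.21 over the subunit genes and -0.01 over all genes. The 6 genes with the lowest adjusted p were Ndufb11, Cox5b, Atp5mpl, Atp5j2, Sdhb and Ndufb1, with differences in log2 change of 0.89 ± 0.09, 0.65 ± 0.08, 0.82 ± 0.10, 0.74 ± 0.09, 0.62 ± 0.08 and 1.11 ± 0.15 (SE). In 5 of these 6 genes the change was negative in 4T1 and positive in EMT6, and Ndufb11 is the exception. The 7 negative differences include Cox7a2l at -0.47 ± 0.09 and Ndufa6 at -0.44 ± 0.09, both called higher in 4T1 and not called in EMT6, where their log2 changes were -0.12 and -0.10.

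**Figure D3:**
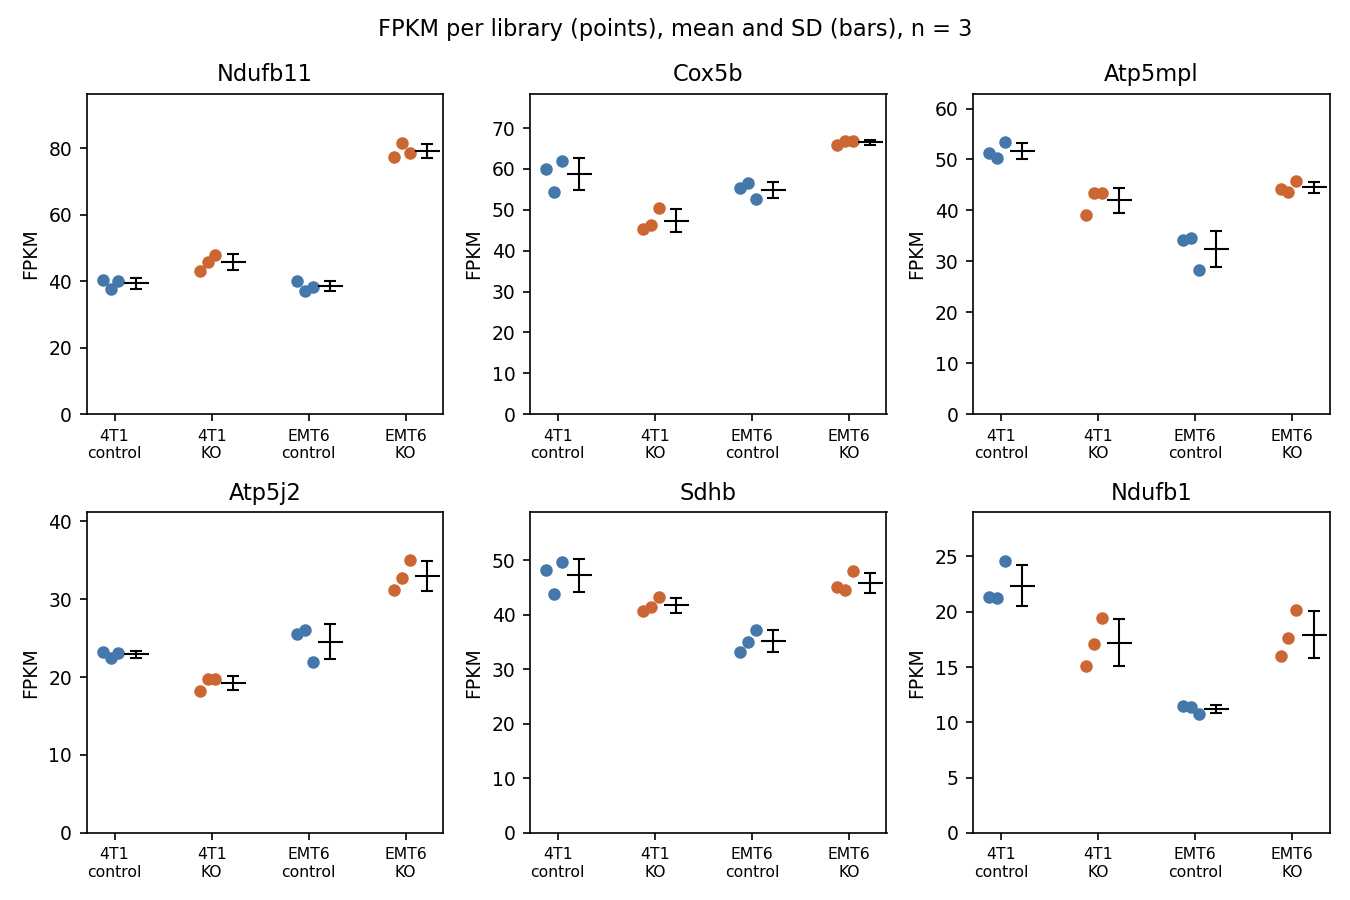
FPKM in each library of the 6 nuclear genes with the lowest adjusted p for the difference between lines. Points are libraries, and bars to their right are the mean and SD of 3 libraries. In Cox5b, Atp5mpl, Atp5j2, Sdhb and Ndufb1 the KO libraries lie below the controls in 4T1 and above them in EMT6.

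Read gene by gene, 14 nuclear subunits were called lower in 4T1 and higher in EMT6, and 0 were called the other way round. These are 17.7% and 0% of the 79 genes, beside 10.2% and 9.42% of the 12006 genes tested in both lines. Another 5 were lower in both lines, namely Uqcrc1, Ndufs1, Ndufa9, Atp5pb and Atp5h, and 4 were higher in both, namely Cox7b, Atp5e, Ndufa8 and Ndufv2. In Atp5h, 66.6% of the windows of 50 bases recur in other genes, so its count is uncertain. In 4T1 alone 8 were called lower and 4 higher, in EMT6 alone 3 lower and 18 higher, and 23 had no call in either line. Over all genes, 7.85% were lower in both lines, 7.05% higher in both, 10.7% higher in EMT6 alone and 21.1% without a call. The 14 come from all complexes: Ndufb1, Ndufb3, Ndufs3 and Ndufs6 of complex I, Sdhb of complex II, Uqcrb, Uqcrq and Uqcr11 of complex III, Cox5b and Ndufa4 of complex IV, and Atp5c1, Atp5j2, Atp5k and Atp5mpl of ATP synthase. Of these, Ndufb3, Ndufs3, Ndufs6 and Atp5k were named after their values were seen, like Ndufa8 above and the short genes Ndufa1, Ndufa3 and Atp5md below. Some of the 14 calls rest on single libraries, as given for Ndufa4, Uqcrb, Uqcrq and Atp5c1. The 4T1 call of Uqcr11 was lost when any 1 library other than control 3 was left out, at adjusted p from 0.050 to 0.17. Of the genes called the same way in both lines, the 4T1 call was lost for Atp5h without KO 2 (adjusted p = 0.053) and for Atp5pb without control 1 (0.16), KO 1 (0.053) or KO 2 (0.057). It was lost for Atp5e without control 1, control 2, KO 2 or KO 3 (0.11 to 0.26) and for Ndufv2 without control 2, control 3, KO 2 or KO 3 (0.063 to 0.15). The calls of Ndufa8, Ndufb3, Ndufs3, Ndufs6 and Atp5k were not checked in this way, nor were those of Ndufa1, Ndufa3 and Atp5md.

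Among mitochondrially encoded genes, 3 of 11 had a called difference, beside 59.9% of all 12006 genes tested. The 3 are mt-Co1 at -1.0 ± 0.32, mt-Co3 at 0.75 ± 0.25 and mt-Nd1 at 0.98 ± 0.32. The call of mt-Co1 was lost without 4T1 control 1, control 3 or KO 2, or EMT6 control 1, KO 1 or KO 3 (edgeR adjusted p from 0.052 to 0.057). That of mt-Nd1 was lost without 4T1 control 2 or KO 3 or EMT6 KO 2 (0.057 to 0.063).

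**Figure D4:**
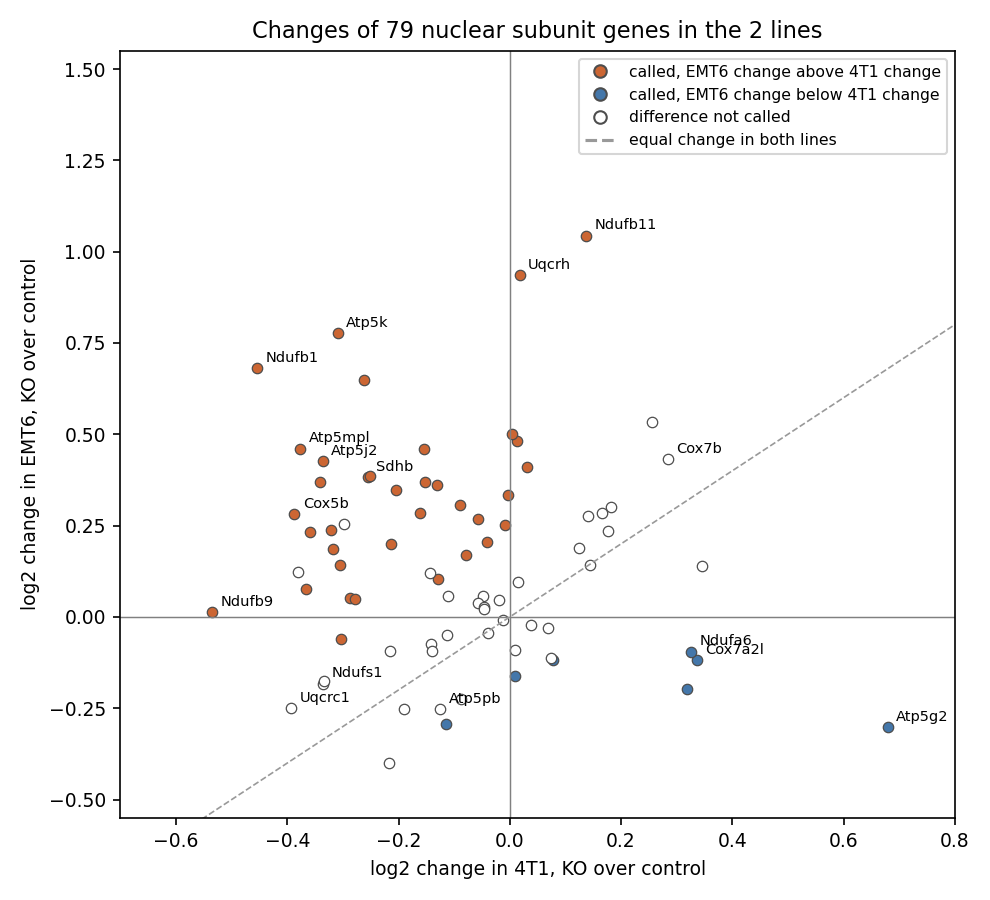
Log2 change in EMT6 (vertical) against log2 change in 4T1 (horizontal) for the 79 nuclear genes tested in both lines. Filled points have a called difference between lines, and most of the 36 orange points lie in the upper left, lower in 4T1 and higher in EMT6.

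The EMT6 changes varied with transcript length, taken as the median length of a gene's protein-coding transcripts in M21. Of the 12 nuclear subunit genes with transcripts of up to 500 bases, 10 rose in EMT6, with a median log2 change of 0.39. They are Atp5e, Atp5k, Atp5md, Atp5mpl, Cox6b1, Ndufa1, Ndufa3, Ndufa4, Uqcr11 and Uqcrh. The other 152 genes of that length had a median of 0.08, and 51 of them rose. Of the 19 subunit genes over 1000 bases, 4 rose and 2 fell, with a median of -0.04. EMT6 control 3 was the lowest of the 6 libraries in most of these 10 short genes. It had 38.3 FPKM of Uqcrh and 17.2 FPKM of Atp5k, and was also lowest in Atp5md, Atp5mpl, Cox6b1, Ndufa3, Ndufa4 and Uqcr11. In Atp5e and Ndufa1 another control was lowest. Without control 3, 29 nuclear subunits rose and 8 fell in EMT6, with a median log2 change of 0.11. With an offset for length in each library, 24 nuclear subunits rose and 13 fell in EMT6, and with offsets for length and GC content 24 rose and 16 fell. In 4T1 the 12 short subunit genes had a median of 0.01, and the 19 over 1000 bases had a median of -0.21, of which 10 fell and 2 rose. The 153 other short genes in 4T1 had a median of -0.007. Other 4T1 genes over 1000 bases had medians of -0.035, -0.025 and 0.019 in successive ranges of increasing length. In these ranges 502 of 1549, 945 of 2903 and 1460 of 4853 fell, and 384, 782 and 1564 rose. What makes the values vary with length was not tested.

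**Figure D5:**
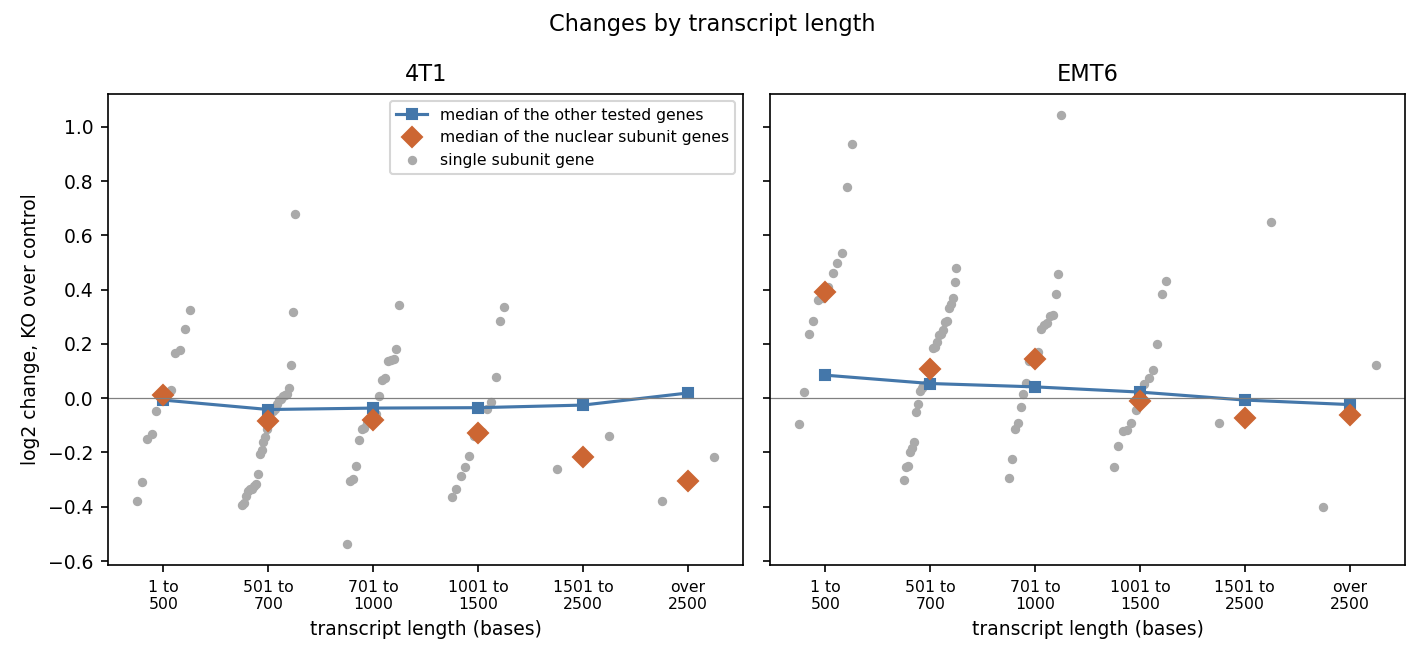
Log2 change (KO over control) by transcript length, 4T1 on the left and EMT6 on the right. Grey points are nuclear subunit genes, orange diamonds their median, and blue squares the median of the other tested genes, which in EMT6 goes from 0.08 at up to 500 bases to -0.02 over 2500 bases.

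The genes that assemble the complexes were read from lists of symbols by function, and their counts stand beside the same background of 29.0% lower and 28.0% higher in 4T1 and 28.2% lower and 27.9% higher in EMT6. Counts such as 5 of 19 or 4 of 15 are near or below it. The 15 tested assembly factors of complex I had 6 lower and 3 higher in 4T1 and 1 lower and 4 higher in EMT6. Ndufaf2 and Ndufaf4 of that list fell in 4T1 at -0.50 ± 0.10 and -0.35 ± 0.10 and rose in EMT6 at 0.63 ± 0.12 and 0.54 ± 0.09. Tmem186 of the same list fell in both lines, at -0.48 ± 0.11 in 4T1 and -0.43 ± 0.12 in EMT6. Of the 4 complex II factors, 2 fell in 4T1 and 1 rose in EMT6. Complex III factors had 0 of 6 called in 4T1, and 3 lower and 1 higher in EMT6, where Bcs1l, which inserts the Rieske protein, fell at -0.66 ± 0.12. The 19 complex IV factors had 5 lower and 2 higher in 4T1 and 4 of each in EMT6. Sco1, a copper chaperone of complex IV, fell in EMT6 from 6.39, 6.94 and 7.83 FPKM to 4.36, 4.1 and 4.05 FPKM and also fell in 4T1, at -0.37 ± 0.10. All 4 genes of the list for ATP synthase assembly and its inhibitor fell in 4T1, and 1 fell in EMT6. That gene, Atpaf2, fell in both lines at -0.31 ± 0.07 and -0.32 ± 0.08.

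The same background holds for the further lists, where counts such as 6 of 19 or 3 of 13 are near or below it. Genes that express the mitochondrial genome had 9 of 19 lower and 2 higher in 4T1 and 6 lower and 2 higher in EMT6. Lrpprc, which stabilises mitochondrial messenger RNA, fell in 4T1 from 16.2, 16.8 and 16.7 FPKM to 13.5, 13.8 and 12.7 FPKM and stood at 14.8 ± 0.828 and 13.9 ± 0.416 FPKM (SD, n = 3) in EMT6. Elac2, which trims the ends of mitochondrial transfer RNAs, fell in both lines, at -0.59 ± 0.07 and -0.22 ± 0.07. Of the mitochondrial ribosomal proteins, 51 of 77 were lower and 3 higher in 4T1, with a median of -0.23. In EMT6, 17 were lower and 19 higher, with a median of 0.04. Mrpl20 of this list fell in 4T1 at -0.45 ± 0.07 and rose in EMT6 at 0.77 ± 0.07. The citric acid cycle with pyruvate dehydrogenase had 8 of 18 lower and 3 higher in 4T1, and 12 lower and 1 higher in EMT6, where Ogdh fell from 60.1, 61.4 and 51.8 FPKM to 39.2, 36.5 and 41.3 FPKM. Of 10 outer membrane and carrier genes, 9 fell in 4T1, with Tomm22, a receptor of protein import, at -0.79 ± 0.05, and 5 fell and 2 rose in EMT6. Ubiquinone synthesis had 3 of 13 lower and 3 higher in 4T1, and 4 of 12 lower and 5 higher in EMT6.

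The promoters of nuclear subunit genes are known for binding sites of NRF1, of the ETS factor GABPA and of YY1. Among 8 tested regulators, 3 fell and 1 rose in 4T1, and 2 fell and 4 rose in EMT6. Over all tested genes 29.0% were called lower and 28.0% higher in 4T1, and 28.2% and 27.9% in EMT6. Yy1 fell in 4T1 from 40.6, 40.7 and 41.1 FPKM to 32.3, 32.1 and 31.2 FPKM and rose in EMT6 from 22.2, 23.3 and 22 FPKM to 27.6, 27.4 and 27.6 FPKM. Pprc1, a coactivator of NRF1, fell in both lines at -0.36 ± 0.05 and -0.27 ± 0.06. RefSeq promoters (GRCm38.p6, 250 bases before to 50 after a start) were matched by symbol for 70 of the nuclear subunit genes and searched on both strands. The NRF1 motif, GCGCA followed by any base and GCGC, was present in 17 of the 70 (24.3%), beside 5.19% of all 27025 genes with a promoter. The YY1 motif AAGATGGC was present in 10 of the 70 (14.3%, against 3.19%), and the GABPA motif CCGGAAGT in 5 (7.14%, against 4.31%). None of these motifs contains another whole, and partial overlaps were not counted.

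The 17 genes with the NRF1 motif had 7 lower and 3 higher in 4T1 and 3 lower and 7 higher in EMT6. The 10 genes with the YY1 motif had 4 lower and 0 higher in 4T1 and 2 lower and 4 higher in EMT6. The 70 matched genes had 20 lower and 8 higher in 4T1 and 5 lower and 31 higher in EMT6. Whether the changes of Yy1 bear on the subunit genes was not tested. Stretches before the start of 4 of the 17, those with the lowest adjusted p in 4T1 among called genes whose motif lies wholly before the start with at least 25 bases of the promoter upstream of it, are shown 5′ to 3′ with the motif, on either strand, in capitals. They lie on the minus strand at chr2:10080433-10080474, chr5:115349086-115349145, chr13:73328483-73328523 and chr11:115420026-115420085. Atp5c1 and Ndufs6 were called lower in 4T1 and higher in EMT6, and Cox6a1 was called lower in 4T1 with no call in EMT6. Atp5h, whose count is uncertain, was called lower in both. The 4 were picked among genes called in 4T1, so the choice itself set that they have a call there. Whether the motif has a part in these changes was not tested. The log2 changes of these 4 genes in 4T1 were -0.31, -0.32, -0.28 and -0.19, in the order named here.
Atp5c1: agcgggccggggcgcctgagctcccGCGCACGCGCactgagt
Cox6a1: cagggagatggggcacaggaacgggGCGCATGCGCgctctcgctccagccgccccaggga
Ndufs6: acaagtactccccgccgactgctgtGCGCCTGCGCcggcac
Atp5h: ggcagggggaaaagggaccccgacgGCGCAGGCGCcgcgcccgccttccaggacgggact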

How the data were processed

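RNA sequencing of 12 libraries was analysed, 3 for each of control and sgNEDD4 KO cells of 4T1 and EMT6. Per the submitters' processing notes the tools were cutadapt 1.9.1, HISAT2 2.2.1, HTSeq 0.6.1 and DESeq2, with the build GRCm38. The sources used here name neither the strand nor the multiple-mapping setting. The authors deposited raw read counts per gene and, beside them, FPKM per gene. Recomputed FPKM differed from the deposited FPKM by less than 0.005 in all 340146 values of each line, so FPKM are scaled by total counts and understate or overstate a fold where the fit's TMM factors differ. Table coordinates were given without a build, and 1 of 93 nuclear rows had the start and end of M21.

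Counts were fitted in each line with edgeR 4.0.16 (filterByExpr, TMM, robust quasi-likelihood test; R 4.3.3), and the difference between lines as an interaction over 12 libraries. Genes were called at a Benjamini-Hochberg adjusted p under 0.05 over all genes tested. Errors of log2 changes are SE from the F statistic. The fit was tested on simulated data. Reads carried no molecular identifiers as far as the sources used here say, so counts are not independent molecules.

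Named genes were all mitochondrial ones, per line and complex up to 3 called lower and 2 called higher with the lowest adjusted p and a mean of at least 1 FPKM, isoform families, complex II and the cytochromes, the highest and lowest levels, the 6 lowest interaction p-values, untested rows and up to 2 genes of each other list and line. The members and lists were chosen with earlier results of these data known. Alternatives were DESeq2 1.42.0, limma 3.58.1, other scalings and filters, a replicate block and leaving out each library; length and GC offsets were added after seeing the data.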

Additional observations from a re-analysis of the deposited data

Results flagged for a closer look

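These results met the rule that an effect of the knockout differs between the 2 lines, by edgeR's interaction test with Benjamini-Hochberg adjustment. Of the 79 nuclear subunit genes tested in both lines, 43 had a called difference, beside 59.9% of all 12006 genes tested. By direction, 45.6% of the subunit genes were called positive and 8.86% negative, beside 29.7% and 30.2% of all genes. Values are the log2 change in EMT6 minus that in 4T1.

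In complex I the differences were 0.89 for Ndufb11, 1.11 for Ndufb1, 0.53 for Ndufb9, 0.59 for Ndufs8, 0.89 for Ndufb2, 0.42 for Ndufa10 and -0.44 for Ndufa6. Those of complex II were 0.62 for Sdhb and 0.31 for Sdhc. In complex III they were 0.48 for Uqcrq, 0.50 for Uqcr11, 0.57 for Uqcrb and 0.90 for Uqcrh. Complex IV had 0.65 for Cox5b, 0.47 for Ndufa4, 0.43 for Cox7a2, 0.31 for Cox6a1, 0.23 for Cox8a, 0.36 for Cox6b1, 0.69 for Cox7c, -0.47 for Cox7a2l and -0.19 for Cox6c. ATP synthase had 0.82 for Atp5mpl, 0.74 for Atp5j2, 0.43 for Atp5c1, 0.38 for Atp5g3, 0.22 for Atp5a1, -0.54 for Atp5l, -1.0 for Atp5g2 and -0.20 for Atp5o. The mitochondrially encoded genes had 0.75 for mt-Co3, 0.98 for mt-Nd1 and -1.0 for mt-Co1.

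Atp5g2, Atp5l, Cox7c, Atp5o, mt-Co1 and mt-Co3 have at least 50% of their windows of 50 bases in other annotated genes, so their counts are uncertain. The calls of Atp5o, Cox6c, Cox7c, mt-Co1 and mt-Nd1 were each lost when 1 of several single libraries was left out, at adjusted p up to 0.15, 0.16, 0.088, 0.057 and 0.063 in that order.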

How the results depend on the processing

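Counts of called nuclear subunits moved most with the threshold on fold. Against a fold of 1.2 (glmTreat), 6 fell and 0 rose in 4T1, 0 fell and 13 rose in EMT6, and 24 differed between the lines. With total-count scaling 14 rose in 4T1 and the median was -0.0208; it was -0.0201 with limma on log2(FPKM + 1) and -0.0206 on log2(FPKM + 0.1). It was -0.0366 when genes averaging under 5 FPKM were dropped, -0.0441 with a length offset and -0.0474 with length and GC offsets, which gave 0.0837 in EMT6. With a length offset 13 fell in EMT6, and with length and GC offsets 16; these were added after seeing the data. Leaving out 1 library gave 24 to 33 lower and 4 to 9 higher in 4T1 (median -0.13 to -0.07), 5 to 10 lower and 24 to 34 higher in EMT6 (median 0.11 to 0.16), and 38 to 43 differences. Mitochondrial calls ranged from 3 to 5 in 4T1 and from 1 to 6 in EMT6, the 6 without EMT6 control 1, where mt-Nd4 turned to 0.24; without control 3 it was -0.16. They were 2 in EMT6 with no low-count filter and with limma on either FPKM scale. DESeq2 gave 26 lower and 6 higher in 4T1, and 7 and 34 in EMT6. The cause of these shifts was not tested.

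Deviations of same-numbered control and KO libraries had correlations from -0.13 to 0.01, and those of other pairs reached 0.13 (EMT6 control 1 with KO 3). So few pairs cannot show whether same-numbered libraries share more than a number. With the replicate block, 33 fell and 9 rose in 4T1, 7 fell and 33 rose in EMT6, mitochondrial calls were 5 and 2, and 41 genes differed between lines.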
